A study of Arabidopsis thaliana with 12 samples.

Results

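The comparison of *pifq* with WT seedlings in darkness without lincomycin rested on 6 of the 12 libraries of the series, chosen by their labels as 3 *pifq* dark and 3 WT dark libraries that received no drug. *pifq* is the *pif1pif3pif4pif5* quadruple mutant and WT its parent, both of the Columbia accession of *Arabidopsis thaliana*. Seeds of both genotypes received 3 h of white light to start germination, and whole etiolated seedlings were harvested after 3 days in darkness, as biological triplicates of about 100 mg of tissue. The other 6 libraries, from seedlings grown with lincomycin, an inhibitor of protein synthesis in plastids, were not part of the comparison. Libraries were made from the polyA-tailed 3′ ends of transcripts, and the values are read counts per locus. The labels name triplicates but not separate growth batches, so the p-values measure the spread between these samples.

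The PHYTOCHROME INTERACTING FACTORS (PIFs) are basic helix-loop-helix proteins that accumulate in darkness and hold the seedling in its etiolated state, with a long hypocotyl, a closed apical hook and undeveloped plastids. Light-activated phytochrome triggers their degradation, and the seedling then opens its cotyledons and builds chloroplasts. PIFs bind the G-box and the related PBE-box in promoters, and the quadruple mutant looks partly light-grown in darkness. The comparison addresses which transcripts differ when these factors are missing and no light has been given after germination. In whole seedlings, fewer cells of a type and less RNA per cell cannot be told apart.

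The mutated loci were read first in every library. *PIF3* (AT1G09530) had 91.2, 107 and 102 normalized CPM (CPM, the counts divided by the TMM-scaled library total in units of 1e6) in the WT dark libraries and 1.68, 1.12 and 1.78 in the *pifq* dark libraries. *PIF1* (AT2G20180) had 15.6, 13.9 and 15.4 against 0.533, 0.598 and 0.423 normalized CPM, and *PIF5* (AT3G59060) had 4.46, 5.38 and 5.24 against 0.381, 0.224 and 0.508. For these loci the *pifq* libraries lay far below the WT libraries in all 3 cases. *PIF4* (AT2G43010) had 8.53, 7.78 and 7.36 normalized CPM in WT dark and 9.44, 15.7 and 11.3 in *pifq* dark. It was higher in *pifq* by 0.62 on the log2 scale (edgeR adjusted p = 0.0218). Reads on its 3′ end were thus not lower in the mutant and did not check its label.

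Library totals ran from 12557224 to 17612505 counts, so that 3 counts, the smallest level read as detected, corresponded to between 0.147 and 0.254 normalized CPM, a floor that covers counting error only. Spearman correlations across the genes tested were between 0.970 and 0.990 within a genotype and between 0.883 and 0.917 across genotypes. TMM factors were 1.16 at most in WT dark, above 1 in each, and between 0.850 and 0.922 in *pifq* dark. Between 2 libraries of a genotype the mean chi-square per gene was between 6.94 and 29.5, so none was a copy of another.

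Of 33601 loci, 13456 had enough counts to be tested, at 5 CPM or more in at least 2 of the 6 libraries. A gene was called SSTF (statistically significant and 2-fold) where its change reached 2-fold with an adjusted p no higher than 0.01 in edgeR's quasi-likelihood test, and SS where that p was no higher than 0.05 whatever the fold. Fold changes are given on the log2 scale as *pifq* dark over WT dark, ± their standard error. By these rules 888 genes were SSTF higher in *pifq* (6.60% of those tested) and 838 SSTF lower (6.23%), while 2831 were SS higher (21.0%) and 2686 SS lower (20.0%). At 4-fold or more, 243 SSTF genes were higher and 187 lower, and at 8-fold or more 88 were higher and 62 lower. With library totals in place of TMM the calls became 525 higher and 1744 lower, the higher share of SSTF genes went from 51.4% to 23.1%, and the median over all tested genes moved from 0.0016 to −0.37 (log2), a shift that every gene shares and against which values on that scale are read.

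Genes SSTF higher took 6.30%, 7.66% and 7.41% of the counts in the 3 WT dark libraries and 32.5%, 32.2% and 34.7% in the 3 *pifq* dark libraries, while genes SSTF lower took 11.7%, 10.2% and 11.1% and 2.70%, 2.68% and 2.49%. The sets were chosen by this change, so the shares describe their size and test nothing. The 49 gene lists used here held 216 of the genes SSTF higher and 96 of those SSTF lower. Outside the lists stood 672 and 742 genes, named only where they led the ranking by size.

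**Figure D1:**
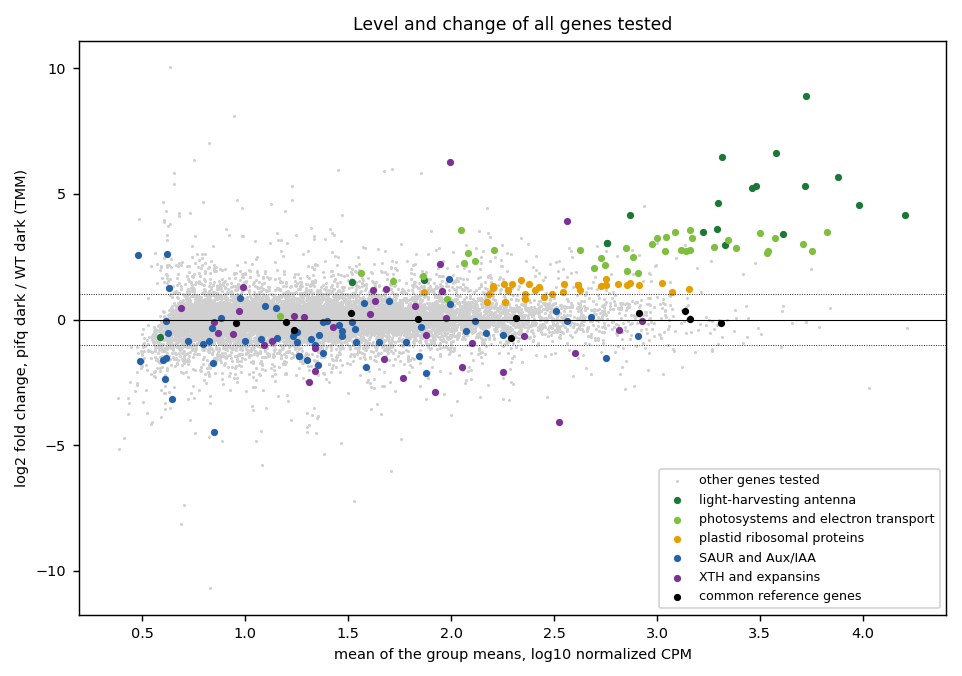
Mean level of each of the 13456 genes tested (x axis, log10 of normalized CPM) against its log2 fold change in *pifq* dark over WT dark with TMM scaling (y axis), with the genes of some lists coloured and 2-fold marked by dotted lines. Most light-harvesting and photosystem genes lie at high levels and above the upper line, and common reference genes lie between −0.74 and 0.35.

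**Figure D2:**
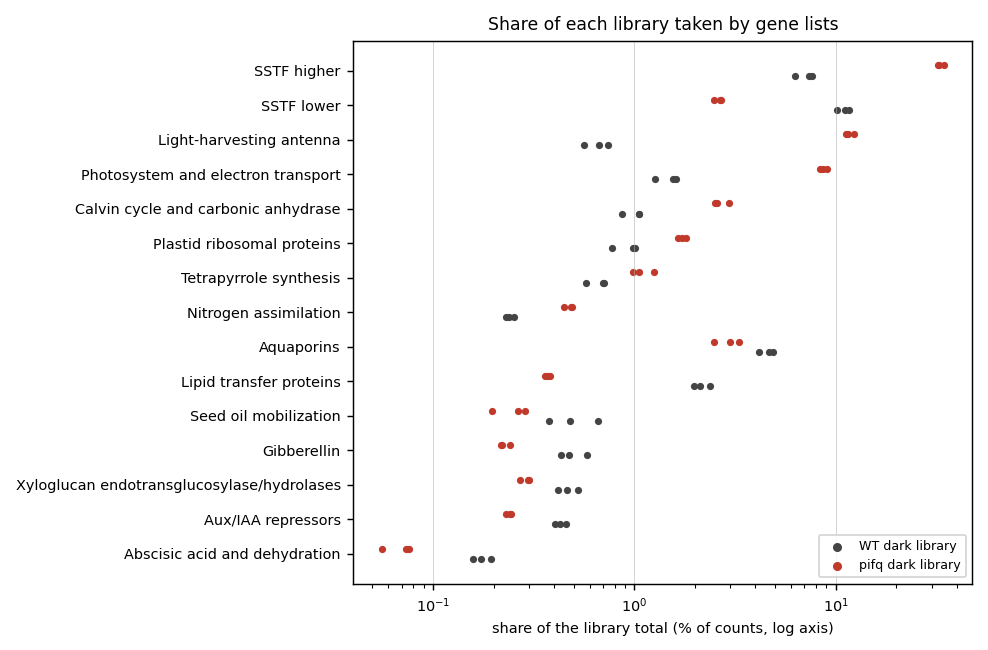
Share of each library's counts (x axis, percent on a log axis) taken by the genes of a list, with 1 point per library and 3 per genotype. The antenna list rises from 0.659% on average in WT dark to 11.7% in *pifq* dark, and the lipid transfer proteins go from 2.16% to 0.370%. Of the 5 lipid transfer genes tested only *LTP2*, the most abundant, was SSTF lower, and 4 were SSTF higher.

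The 250 bases before the annotated start (RefSeq, TAIR10.1) are shown for listed genes with a large change. Each holds a motif bound by PIFs or CCAATC, a putative binding site of GLK proteins. Capitals mark each G-box (CACGTG), PBE-box (CACATG) and CCAATC on either strand, which share no letters with each other in these sequences. The first 3 genes rose and the last 3 fell in *pifq*. Their positions are chr3:17495034-17495283 on the minus strand for *LHCA4*, chr3:10255656-10255905 on the plus strand for *LHCB2.3*, chr2:14523569-14523818 on the minus strand for *LHCB1.5*, chr3:8085670-8085919 on the minus strand for *ELIP1*, chr2:14146556-14146805 on the minus strand for *RD20* and chr5:20819818-20820067 on the plus strand for *OLEO3*.
LHCA4: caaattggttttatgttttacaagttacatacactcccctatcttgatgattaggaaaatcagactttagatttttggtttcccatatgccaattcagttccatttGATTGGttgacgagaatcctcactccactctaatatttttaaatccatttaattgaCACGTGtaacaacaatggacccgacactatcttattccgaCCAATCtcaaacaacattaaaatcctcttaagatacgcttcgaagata
LHCB2.3: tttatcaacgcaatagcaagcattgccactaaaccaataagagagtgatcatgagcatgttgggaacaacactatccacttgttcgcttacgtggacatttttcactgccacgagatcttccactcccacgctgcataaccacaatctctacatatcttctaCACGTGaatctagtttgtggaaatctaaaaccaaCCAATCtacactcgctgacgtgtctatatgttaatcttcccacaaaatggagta
LHCB1.5: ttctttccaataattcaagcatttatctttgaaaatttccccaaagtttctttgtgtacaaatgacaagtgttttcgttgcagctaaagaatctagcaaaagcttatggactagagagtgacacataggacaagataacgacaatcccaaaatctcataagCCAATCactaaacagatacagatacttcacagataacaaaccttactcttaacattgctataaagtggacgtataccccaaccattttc
ELIP1: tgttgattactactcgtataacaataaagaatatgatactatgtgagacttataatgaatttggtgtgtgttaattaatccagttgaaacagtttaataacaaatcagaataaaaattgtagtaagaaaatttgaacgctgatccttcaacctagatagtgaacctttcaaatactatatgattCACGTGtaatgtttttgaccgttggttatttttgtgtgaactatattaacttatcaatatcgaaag
RD20: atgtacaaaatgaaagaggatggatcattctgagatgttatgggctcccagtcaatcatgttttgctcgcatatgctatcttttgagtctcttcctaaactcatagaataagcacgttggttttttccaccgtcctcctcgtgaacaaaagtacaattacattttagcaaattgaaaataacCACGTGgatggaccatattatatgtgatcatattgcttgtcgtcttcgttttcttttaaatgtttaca
OLEO3: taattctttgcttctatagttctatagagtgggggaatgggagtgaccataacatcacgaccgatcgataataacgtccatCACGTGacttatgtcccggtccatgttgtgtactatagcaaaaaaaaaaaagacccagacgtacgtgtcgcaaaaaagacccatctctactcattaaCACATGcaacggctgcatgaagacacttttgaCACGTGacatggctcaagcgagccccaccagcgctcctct

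In *LHCA4* and in *LHCB2.3* the G-box starts 88 bases before the annotated start, and in *ELIP1* and *RD20* 66 and 68 bases before it. Over all 13376 tested genes with such a stretch, 7.61% held a G-box, 11.1% a PBE-box, 10.5% CCAATC and 12.4% the evening element AAATATC, counted on either strand. Among the genes SSTF higher these shares were 10.1%, 12.1%, 13.0% and 13.0%, and among those SSTF lower 7.45%, 16.1%, 8.41% and 15.9%. CCAATC stood in 10 of the 20 antenna genes tested (50%), in 13.2% of the photosystem list, 9.68% of the tetrapyrrole list and 8.70% of the Calvin cycle list, and in 0 of the 42 SAUR genes tested. A PBE-box stood in 22 of those 42 SAUR genes, against 15% of the antenna list and 25% of the Aux/IAA list, and a G-box in 8 of the 19 clock genes tested and 1 of the SAUR genes, against 20% of the antenna list. A match is a description of letters and not a bound site, and motif shares were not tested.

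Light-harvesting antenna genes rose more than any other list, judged by their median. These proteins bind most of the chlorophyll of the thylakoid and funnel energy to the photosystems. Of 21 members 20 were tested, and 19 were SSTF higher, none SSTF lower, with a median log2 fold change of 4.16, or 3.46 over the 15 that remain when genes over 1% of counts are left out. For the photosystem I antenna, *LHCA4* (AT3G47470) had 692, 781 and 848 normalized CPM in WT dark and 17855, 17345 and 19917 in *pifq* dark. Its groups lay far apart, with a change of 4.57 ± 0.19 on the log2 scale (edgeR adjusted p = 2.27e-08). *LHCA1* (AT3G54890) had 254, 247 and 281 normalized CPM in WT dark and 9787, 8744 and 12169 in *pifq* dark, a change of 5.30 ± 0.20 on the log2 scale (edgeR adjusted p = 1.66e-08). The other members, *LHCA3*, *LHCA2*, *LHCA6* and *LHCA5*, had log2 fold changes of 3.62, 3.07, 1.57 and 1.495, so that the minor proteins LHCA5 and LHCA6 rose least, and the 3′ end of *LHCA2* is shared with 1 other gene. In the photosystem II antenna, *LHCB5* (AT4G10340), which encodes the minor antenna CP26, had 638, 719.9 and 782 normalized CPM in WT dark and 7046, 7061 and 8459 in *pifq* dark. It rose by 3.40 ± 0.17 on the log2 scale (edgeR adjusted p = 6.89e-08). *LHCB4.3* alone went the other way, with a log2 fold change of −0.69 that was SS lower.

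The *LHCB1* and *LHCB2* genes encode the trimeric main antenna, and their 3′ ends are alike. All 5 *LHCB1* genes and 2 of the 3 *LHCB2* genes share at least 90% identity over 100 nt or more of their last 500 nt with another gene, so the split of reads between them is uncertain. Summed over its 5 genes, *LHCB1* had 1548, 3094 and 1840.0 normalized CPM in WT dark and 68652, 74538 and 59447 in *pifq* dark, which is 31.3-fold higher on the group means. *LHCB2* had 348, 393 and 384 and 13092, 11254 and 14523, 34.5-fold higher. For both sums every *pifq* library was above every WT library. As counted, single genes ran from 4.15 for *LHCB1.3* (AT1G29930) to 8.89 for *LHCB1.4* (AT2G34430), and the former varied between libraries, with 1149.6, 2601 and 1408 normalized CPM in WT dark and 30681, 39326 and 21371 in *pifq* dark.

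Photosystem and electron transport genes rose almost without exception. Of 39 members 38 were tested, 36 were SSTF higher and none lower, with a median log2 fold change of 2.74 and a range from 0.13 to 3.56. All 13 photosystem I subunits were SSTF higher, as were the 12 photosystem II subunits tested and 11 of 13 electron carriers and ATP synthase subunits. *PSAG* (AT1G55670), a photosystem I subunit, had 847, 1335 and 1088 normalized CPM in WT dark and 14115, 12303 and 10486 in *pifq* dark. Its groups did not overlap, with a change of 3.50 ± 0.22 on the log2 scale (edgeR adjusted p = 3.39e-07). *PSAN* (AT5G64040), on the lumenal side of photosystem I, had 215, 229 and 237 normalized CPM in WT dark and 2639, 2579 and 2817 in *pifq* dark, a change of 3.56 ± 0.15 on the log2 scale (edgeR adjusted p = 2.27e-08). *PSBO2* (AT3G50820), a protein of the oxygen-evolving complex whose 3′ end resembles that of 1 other gene, had 16.3, 17.95 and 18.2 normalized CPM in WT dark and 198, 201 and 220.1 in *pifq* dark. The log2 fold change was 3.56. *PETE2* (AT1G20340), the more abundant plastocyanin, had 1143, 1842 and 1427 normalized CPM in WT dark and 10971, 10631 and 7846 in *pifq* dark. It rose by 2.74 on the log2 scale. The exceptions were *FD1*, a ferredoxin that rose by less than 2-fold (0.81, SS higher), and *PGRL1B*, a component of cyclic electron flow (0.13, not SS).

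Calvin cycle and photorespiration lists had positive medians well below that of the antenna. Of 23 Calvin cycle and carbonic anhydrase genes tested 16 were SSTF higher and none lower (median 1.73), and of 14 photorespiration genes 9 were SSTF higher and none lower (median 1.32). *RCA* (AT2G39730), the activase of Rubisco, had 284, 298 and 347 normalized CPM in WT dark and 2316, 2024 and 2902 in *pifq* dark. It rose by 2.96 ± 0.18 on the log2 scale (edgeR adjusted p = 2.58e-07). *GAPA-2* (AT1G12900), a subunit of the plastid glyceraldehyde phosphate dehydrogenase, had a log2 fold change of 3.04, and *GAPB* (AT1G42970), its partner subunit, one of 2.45. Rubisco small subunit genes have similar 3′ ends in 3 of 4 listed cases. Their sum was 3471, 5135 and 4399 normalized CPM in WT dark and 15645, 15756 and 14843 in *pifq* dark, 3.56-fold higher on the group means, with no overlap. The carbonic anhydrases parted, since *CA1* (AT3G01500) had 104, 129 and 121 normalized CPM in WT dark and 864, 771 and 1065 in *pifq* dark, a change of 2.93 ± 0.17 on the log2 scale (edgeR adjusted p = 1.67e-07), while *CA2* (AT5G14740) had 455, 535 and 585 normalized CPM in WT dark and 644, 620.0 and 837 in *pifq* dark and was not SS (edgeR adjusted p = 0.0564). In photorespiration, *GGT1* (AT1G23310), the peroxisomal glutamate aminotransferase, rose most, with 153, 212 and 209 normalized CPM in WT dark and 1109, 1079 and 1085 in *pifq* dark. It rose by 2.51 on the log2 scale. *HPR1* (AT1G68010) and *AGT1* (AT2G13360), peroxisomal enzymes of the same path, rose by 1.89 and 1.89.

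Nitrogen assimilation, which supplies amino groups to the same plastids, also rose in the main. Of 12 genes 7 were SSTF higher and 1 SSTF lower, with a median of 1.24. *NIA2* (AT1G37130), a nitrate reductase, had 84.2, 142 and 106 normalized CPM in WT dark and 606, 549.6 and 450.4 in *pifq* dark, a change of 2.27 ± 0.20 on the log2 scale (edgeR adjusted p = 4.64e-06). *GS2* (AT5G35630), the plastid glutamine synthetase, had 533, 705 and 597 normalized CPM in WT dark and 2661, 2281 and 2646 in *pifq* dark. It rose by 2.05, whereas the cytosolic glutamine synthetase *GLN1;1* (AT5G37600) fell by 1.21 on the log2 scale, with 119, 69.8 and 107 normalized CPM in WT dark and 36.2, 41.2 and 50.8 in *pifq* dark. *ASN2* (AT5G65010), an asparagine synthetase, rose from 8.48, 8.79 and 9.49 to 66.6, 52.7 and 76.6 normalized CPM. Glutamate dehydrogenases differed less, at 0.38 for *GDH1* and 0.077 for *GDH2*, the latter not SS with TMM and −0.30 with library totals.

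Tetrapyrrole synthesis makes chlorophyll and haem from glutamate. Of 31 genes 18 were SSTF higher and 1 SSTF lower, with a median log2 fold change of 1.18. The chlorophyll branch had 11 of 14 genes SSTF higher, the common steps to protoporphyrin 7 of 12, and the haem and bilin branch with its control gene none of 5. *HEMA1* (AT1G58290), glutamyl-tRNA reductase and the first committed enzyme, had 94.6, 106 and 99.2 normalized CPM in WT dark and 668, 649 and 672 in *pifq* dark. Its libraries were close within each group and far apart between them, with a change of 2.73 ± 0.13 on the log2 scale (edgeR adjusted p = 4.28e-08). *GUN5* (AT5G13630), the large subunit of magnesium chelatase, had 159, 225 and 194 normalized CPM in WT dark and 1393, 1155 and 1391 in *pifq* dark, a log2 change of 2.77. *GUN4* (AT3G59400), which activates that chelatase, rose by 2.33, and *CAO* (AT1G44446), which makes chlorophyll b, rose from 45.9, 52.3 and 57.8 to 414, 372 and 476 normalized CPM, a change of 3.02 ± 0.15 on the log2 scale (edgeR adjusted p = 6.51e-08). The exception was *PORA* (AT5G54190), the protochlorophyllide oxidoreductase of etiolated seedlings, which had 833, 1266 and 1139 normalized CPM in WT dark and 215, 255 and 246 in *pifq* dark. It fell by 2.18 on the log2 scale (standard error 0.18, edgeR adjusted p = 2.43e-06), and *PORB* was SS lower by less than 2-fold (−0.52) while *PORC* was SSTF higher (1.62). In the haem branch, *FLU*, a brake on the common path, had 0.65, *FC2* 0.61, *HY2* 0.31, *HY1* −0.069 and *FC1* −0.38, with only *FLU* and *FC2* SS higher. None of the 6 chlorophyll breakdown genes tested was SSTF (2 were SS higher), and their median of 0.18 turned to −0.20 with library totals.

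Plastid isoprenoid genes rose in part. Of 22 tested 8 were SSTF higher and 1 SSTF lower, and all 8 genes of the methylerythritol phosphate path were SS higher (median 0.98). The count of SSTF higher genes was 3 with library totals and 5 without *pifq* dark replicate 3. *DXS* (AT4G15560), which opens the path, had 127, 151 and 144 normalized CPM in WT dark and 409, 359.9 and 489 in *pifq* dark. It rose by 1.58 ± 0.15 on the log2 scale (edgeR adjusted p = 8.29e-06). *PSY* (AT5G17230), the phytoene synthase that commits carbon to carotenoids, had 19.4, 22.1 and 27.3 normalized CPM in WT dark and 82.8, 73.2 and 88.7 in *pifq* dark, a log2 change of 1.83. *BCH2* (AT5G52570), a carotene hydroxylase, rose from 2.305, 3.20 and 1.88 to 25.1, 23.7 and 29.4 normalized CPM and so went beyond the rest of its path, at 3.43. Tocopherol genes parted: *VTE3* (AT3G63410) rose by 1.29, *PDS1* was SS higher at 0.78, and *VTE2* (AT2G18950) fell by 1.39, from 7.21, 6.47 and 6.33 to 2.21, 3.21 and 2.199 normalized CPM.

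Genes for the plastid's own translation formed an even group. All 33 plastid ribosomal protein genes were SS higher and 29 SSTF higher, within a narrow range of log2 fold changes from 0.68 to 1.60 and a median of 1.29. Many lay close to 2-fold, and the SSTF count was 13 with library totals. *PRPL27* (AT5G40950) had 87.4, 121 and 119 normalized CPM in WT dark and 355, 319 and 309 in *pifq* dark, a change of 1.58 ± 0.15 on the log2 scale (edgeR adjusted p = 9.45e-06). *PRPL13* (AT1G78630) had 189.8, 361 and 290.3 normalized CPM in WT dark and 906, 932.0 and 714 in *pifq* dark, with a log2 fold change of 1.60. Import and folding genes changed less: of 10 import genes and 6 chaperone genes none was SSTF, and 4 and 3 were SS higher. Among 10 proteases and thylakoid insertion factors 6 were SSTF higher and all were SS higher, and with library totals the whole list of 26 held 2 SSTF higher genes. The largest rise was that of *CAO-SRP43* (AT2G47450), the chaperone that carries antenna proteins to the thylakoid, with 45.6, 66.9 and 53.3 normalized CPM in WT dark and 351, 321 and 328 in *pifq* dark. Its log2 fold change was 2.59 ± 0.16 (edgeR adjusted p = 2.7e-07). *VAR2* (AT2G30950), a thylakoid FtsH protease, rose by 1.55. The plastid sigma factors direct the plastid RNA polymerase, and of the 5 tested *SIG1* was SSTF higher. *SIG1* (AT1G64860) had 11.7, 15.04 and 14.0 normalized CPM in WT dark and 38.8, 38.2 and 46.4 in *pifq* dark, a change of 1.60 ± 0.14 on the log2 scale (edgeR adjusted p = 5.31e-06). *SIG2* and *SIG6* were SS higher at 0.71 and 0.55, *SIG4* (0.32) and *SIG3* (0.081) were not SS, and *SIG5* stayed under the filter, with 0.736, 0.291 and 1.09 normalized CPM in WT dark and 3.05, 2.91 and 4.65 in *pifq* dark.

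Transcripts encoded in the organelles were mostly under the filter. Capture needed a polyA tail, and what share of organelle transcripts carried one was not tested. The counts below therefore describe captured fragments and are not read as organelle transcript levels. Of 133 plastid loci 23 were tested, 10 were SS higher and 2 SSTF higher, and none was SS lower (median 0.88). That SSTF count was 0 without *pifq* dark replicate 1, 13 without *pifq* dark replicate 3, 8 without WT dark replicate 2, and 1 without WT dark replicate 1, WT dark replicate 3 or *pifq* dark replicate 2. Of 145 mitochondrial loci 4 were tested and 3 were SSTF lower, a count of 1 without WT dark replicate 3 or without *pifq* dark replicate 3.

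**Figure D3:**
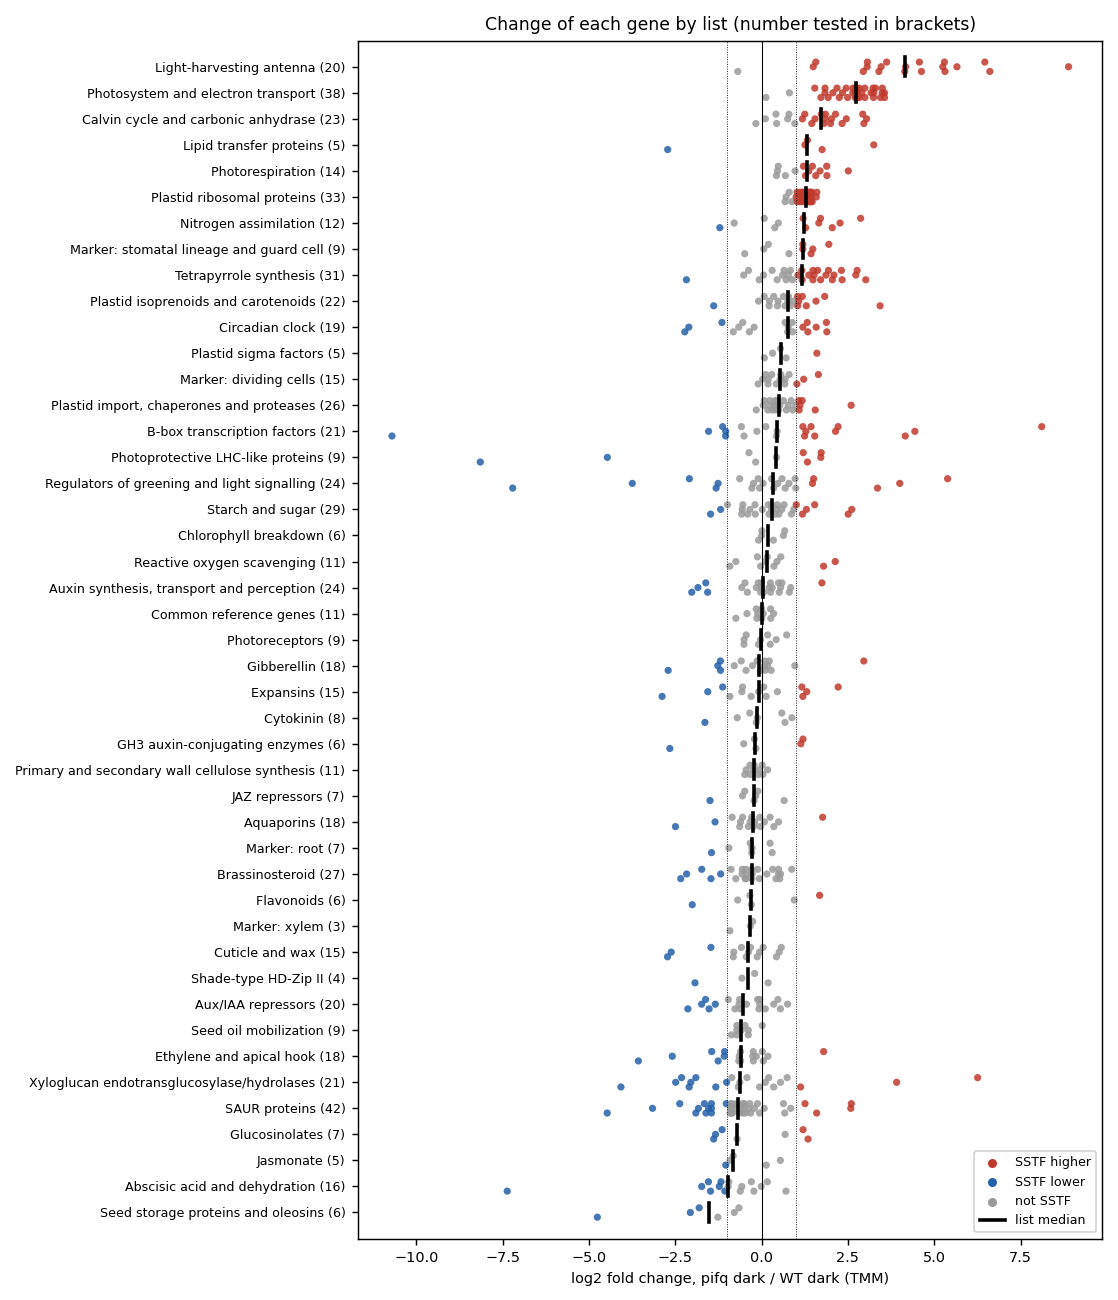
Log2 fold change in *pifq* dark over WT dark with TMM scaling (x axis) of every tested gene in each list of nuclear genes with 3 or more tested, sorted by the list median (black bar), with SSTF genes in red or blue. The antenna median is 4.16 and that of the seed storage list −1.54. With library totals all values shift by about −0.37, and 6 lists then have medians below 0 in place of above 0. They are those for regulators of greening, starch and sugar, chlorophyll breakdown, reactive oxygen scavenging, reference genes, and auxin synthesis, transport and perception.

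Regulators of greening and light signalling moved in both directions. Of 24 tested 5 were SSTF higher and 5 SSTF lower, with a median of 0.32 that became −0.054 with library totals. Among activators of chloroplast genes, *GLK2* (AT5G44190) had 9.86, 9.81 and 9.59 normalized CPM in WT dark and 24.2, 20.8 and 36.5 in *pifq* dark, a change of 1.47 ± 0.19 on the log2 scale (edgeR adjusted p = 0.000113). *GNL* (AT4G26150), a GATA factor that promotes greening, rose from 0.196, 0.436 and 0.445 to 6.24, 5.31 and 5.67 normalized CPM, with a log2 fold change of 4.002, while its close relative *GNC* had 0.29 and was not SS. *GLK1* (AT2G20570), the partner of GLK2 in chloroplast development, had 10.8, 8.14 and 10.2 normalized CPM in WT dark and 16.6, 17.0 and 24.9 in *pifq* dark, SS higher by 0.99 ± 0.18 (edgeR adjusted p = 0.00130) and thus just under 2-fold, and it was SSTF higher without WT dark replicate 1 or 3 or without *pifq* dark replicate 1 or 2. *HY5* (AT5G11260), the bZIP factor that promotes light responses and is degraded in darkness as a protein, fell by 1.32, with 21.2, 27.2 and 23.5 normalized CPM in WT dark and 9.29, 11.9 and 7.53 in *pifq* dark. Repressors of light signalling changed little in comparison, since *SPA1* (0.79) and *SPA3* (0.68) were SS higher and *COP1* (−0.23) and *SPA2* (−0.28) were not SS. The phytochrome kinase substrates were all SS higher, with *PKS3* (AT1G18810) and *PKS4* (AT5G04190) SSTF higher at 3.36 and 1.51.

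Relatives of the PIFs held some of the steepest falls of the data. *PIL1* (AT2G46970), a PIF relative induced by shade, had 67.2, 67.6 and 65.8 normalized CPM in WT dark and 0.457, 0.149 and 0.761 in *pifq* dark. The *pifq* libraries held 17 counts in all, and the log2 fold change was −7.21 ± 0.25 (edgeR adjusted p = 1.08e-08). *HFR1* (AT1G02340), an atypical bHLH protein that binds PIFs and blocks them, had 87.8, 91.9 and 76.0 normalized CPM in WT dark and 6.17, 8.37 and 4.40 in *pifq* dark. It fell by 3.74 on the log2 scale (standard error 0.20, edgeR adjusted p = 1.02e-07). *PIL2* (AT3G62090) fell by 2.09. In contrast, *PIF7* (AT5G61270), a PIF outside the quadruple mutant, had 0.147, 0.218 and 0.247 normalized CPM in WT dark and 8.38, 12.2 and 5.75 in *pifq* dark. Its *pifq* libraries were all above the WT libraries, which held 11 counts in all, and its log2 fold change was 5.39. Photoreceptor genes changed by less than 2-fold: none of 9 tested was SSTF, and *PHYA*, the phytochrome of etiolated seedlings, was SS lower with 401, 368 and 386 normalized CPM in WT dark and 267, 233 and 312 in *pifq* dark, at −0.51.

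**Figure D4:**
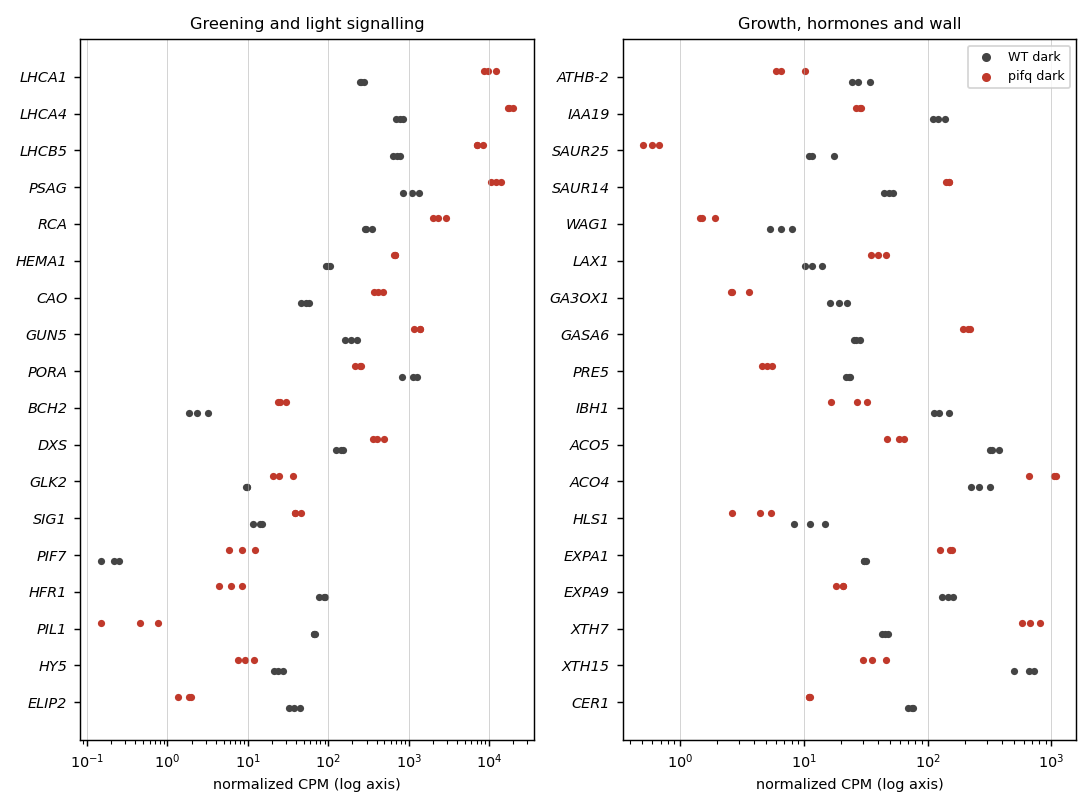
Normalized CPM (x axis, log axis) of named genes in each of the 3 WT dark (dark grey) and 3 *pifq* dark (red) libraries. Most genes of greening lie to the right in *pifq*, *PORA*, *HFR1*, *PIL1*, *HY5* and *ELIP2* lie to the left, and genes of growth and hormones lie on both sides.

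B-box proteins are zinc finger factors that act for or against light responses. Of the 21 that were tested 10 were SSTF higher and 5 were lower, and the lower count was 3 without WT dark replicate 3 or without *pifq* dark replicate 1. *BBX3* (AT3G02380) rose from 2.89, 2.98 and 3.46 to 57.9, 46.1 and 63.9 normalized CPM, a change of 4.16 ± 0.17 on the log2 scale (edgeR adjusted p = 2.27e-08). *BBX25* (AT2G31380), a repressor of photomorphogenesis, rose by 4.44. At the extremes, *BBX16* (AT1G73870) had at most 2 counts in a WT dark library and 18.05, 16.1 and 18.4 normalized CPM in *pifq* dark, a ratio of 317, with a 95% exact counting interval from 108 to 1540.3. *BBX23* (AT4G10240), a positive regulator, had no count in *pifq* dark and 11.9, 11.99 and 16.5 normalized CPM in WT dark, which made it at least 57.1-fold lower against 3 counts per library. *BBX20* (AT4G39070), also a positive regulator, fell by 1.54. Among LHC-like proteins of photoprotection 4 of 9 were SSTF higher and 2 lower. The one-helix proteins *OHP1* (AT5G02120) and *OHP2* (AT1G34000) rose by 1.72 and 1.73, and *PSBS*, needed for heat dissipation, rose by 1.21, though under 2-fold with library totals, where the SSTF higher count of these proteins was 2. The early light-induced proteins went down: *ELIP2* (AT4G14690) had 32.8, 44.5 and 37.8 normalized CPM in WT dark and 1.98, 1.35 and 1.86 in *pifq* dark, a change of −4.47 ± 0.20 on the log2 scale (edgeR adjusted p = 3.06e-08), and *ELIP1* (AT3G22840), with at most 1 count in a *pifq* library, had a WT to *pifq* ratio of 369 (95% exact counting interval from 65.9 to 14588).

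Clock genes moved both ways. Of 13 tested genes of the morning and day 6 were SSTF higher and 2 lower (median 0.89), and of 6 evening genes none was SSTF higher and 1 lower (median −0.60), a split that was not tested. *CCA1* (AT2G46830), a morning repressor of the evening genes, had 35.7, 45.8 and 39.6 normalized CPM in WT dark and 100.97, 104 and 102 in *pifq* dark. Its log2 fold change was 1.34 ± 0.12 (edgeR adjusted p = 7.28e-06), and it was no longer SSTF with library totals. *LNK2* (AT3G54500), *LNK3* (AT3G12320) and *LNK4* (AT5G06980), coactivators of the morning REVEILLE factors, rose by 1.88, 1.89 and 1.58. *PRR3* (AT5G60100) fell by 2.11 and *BOA* (AT5G59570), a relative of LUX, by 2.22, the latter with 34.0, 40.4 and 36.9 normalized CPM in WT dark and 8.91, 7.996 and 6.85 in *pifq* dark. All seedlings were harvested at 1 age, and with library totals the SSTF counts of the list were 3 higher and 5 lower.

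SAUR and Aux/IAA genes, which respond quickly to auxin, fell more often than they rose. Of 42 SAUR genes tested 12 were SSTF lower and 4 higher, and 25 SS lower and 7 SS higher (median −0.69). The 3′ ends of 8 of these 42 are shared with another gene, so their reads may be split. SAUR proteins promote cell expansion by activating the proton pump of the plasma membrane. *SAUR25* (AT4G13790) had 17.5, 11.1 and 11.7 normalized CPM in WT dark and 0.685, 0.598 and 0.508 in *pifq* dark, a change of −4.47 ± 0.28 on the log2 scale (edgeR adjusted p = 3.91e-07). *SAUR17* (AT4G09530) and *SAUR76* (AT5G20820) fell by 3.16 and 2.37. *SAUR14* (AT4G38840) went up, with 52.7, 44.6 and 48.5 normalized CPM in WT dark and 148, 150.3 and 142 in *pifq* dark, a change of 1.60 ± 0.12 on the log2 scale (edgeR adjusted p = 1.3e-06). *SAUR12* (AT2G21220), *SAUR57* (AT3G53250) and *SAUR77* (AT1G17345) also rose, by 2.60, 2.58 and 1.26, all at a low level, and the SSTF higher count of the family was 1 without *pifq* dark replicate 1. With library totals the family had 22 SSTF lower genes. Of the 20 Aux/IAA repressors tested 5 were SSTF lower, none higher, and 11 SS lower against 4 SS higher (median −0.53), with 9 SSTF lower under library totals. *IAA19* (AT3G15540), which is induced by auxin in growing hypocotyls, had 138, 110.0 and 122 normalized CPM in WT dark and 29.3, 26.7 and 28.4 in *pifq* dark. It fell by 2.13 ± 0.13 on the log2 scale (edgeR adjusted p = 2.6e-07). The abundant *IAA17* (AT1G04250) had 883, 795 and 841 normalized CPM in WT dark and 323, 287 and 268 in *pifq* dark and fell by 1.52. In the GH3 family, which conjugates hormones to amino acids, *GH3.3* (AT2G23170) and *GH3.6* (AT5G54510) rose by 1.2 and 1.14, while *GH3.12* (AT5G13320), which acts in salicylate metabolism, fell by 2.66; *GH3.6* was no longer SSTF without *pifq* dark replicate 1, and neither was with library totals.

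Auxin transport held 4 SSTF lower genes and 1 higher among 16 tested, and without *pifq* dark replicate 3 the auxin list had 2 higher. The 4 lower were 25% and the 1 higher 6.25% of those tested, against 6.23% and 6.60% over all genes tested. The 4 that fell were the kinases *PID* (AT2G34650), *WAG1* (AT1G53700) and *WAG2* (AT3G14370), which set the position of PIN auxin carriers, and the exporter *ABCB4* (AT2G47000), with log2 fold changes of −1.56, −2.02, −1.84 and −1.62. *WAG2* had 25.2, 19.0 and 20.5 normalized CPM in WT dark and 7.46, 4.71 and 5.92 in *pifq* dark, a change of −1.84 ± 0.19 on the log2 scale (edgeR adjusted p = 1.51e-05). The influx carrier *LAX1* (AT5G01240) had 10.2, 14.2 and 11.8 normalized CPM in WT dark and 39.9, 46.0 and 35.0 in *pifq* dark. It rose by 1.75 ± 0.16 on the log2 scale (edgeR adjusted p = 5.74e-06). None of 3 synthesis genes tested and none of 5 receptors was SSTF, and the receptor *TIR1* was SS higher (0.59) and *AFB1* SS lower (−0.41). Over the 24 genes tested for synthesis, transport and perception the median was 0.029, and −0.34 with library totals. Among the shade-type HD-Zip II factors, which respond to auxin and to shade, *ATHB-2* (AT4G16780) had 34.0, 24.8 and 27.5 normalized CPM in WT dark and 6.02, 6.58 and 10.2 in *pifq* dark. It fell by 1.93 (standard error 0.20, edgeR adjusted p = 2.03e-05), *HAT1* was SS lower at −0.57, and *HAT2* (−0.20) and *HAT3* (0.19) were not SS.

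Gibberellin promotes the growth of etiolated hypocotyls by removing DELLA repressors. Among 18 tested genes, 4 were SSTF lower and 1 higher, or 2 higher without WT dark replicate 2. The 4 lower were 22.2% and the 1 higher 5.56% of those tested, against 6.23% and 6.60% over all genes tested. *GA3OX1* (AT1G15550), the last enzyme in making active gibberellin, had 22.5, 16.2 and 19.2 normalized CPM in WT dark and 2.67, 2.62 and 3.64 in *pifq* dark. It fell by 2.71 ± 0.19 on the log2 scale (edgeR adjusted p = 9.74e-07). *GA2OX6* (AT1G02400), which inactivates the hormone, fell too, by 1.27, with 48.6, 50.1 and 50.9 normalized CPM in WT dark and 22.2, 21.9 and 17.9 in *pifq* dark. Of the DELLA genes *RGL1* (AT1G66350) fell by 1.19, and no other gene of perception was SS. GASA response genes parted, since *GASA6* (AT1G74670) had 25.3, 28.5 and 26.5 normalized CPM in WT dark and 195, 211 and 219 in *pifq* dark, a change of 2.96 ± 0.13 on the log2 scale (edgeR adjusted p = 2.52e-08), while the far more abundant *GASA1* (AT1G75750) had 3214, 2233 and 2259 normalized CPM in WT dark and 1197, 1007 and 1178 in *pifq* dark and fell by 1.19, a fall under 2-fold without WT dark replicate 1. *GASA4* and *GASA14* were SS lower at −0.59 and −0.79.

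Brassinosteroid genes held 5 SSTF lower and no SSTF higher among 27 tested (11 SS lower and 6 SS higher, median −0.29). Of the 5, 4 were small growth bHLH proteins, a group in which PRE proteins promote elongation by removing inhibitors such as IBH1. *PRE5* (AT3G28857) had 22.1, 23.5 and 23.1 normalized CPM in WT dark and 5.03, 5.53 and 4.65 in *pifq* dark, a change of −2.17 ± 0.14 on the log2 scale (edgeR adjusted p = 4.63e-07). *PRE6* (AT1G26945) fell by 1.46, *BEE1* (AT1G18400) by 1.73, and the inhibitor *IBH1* (AT2G43060) by 2.34, with 124, 149 and 113 normalized CPM in WT dark and 26.9, 32.7 and 16.5 in *pifq* dark. The remaining SSTF gene was *ROT3*, a cytochrome P450 of synthesis (−1.18). Inactivating enzymes were under 2-fold, from −0.88 for *SOB7* to 0.87 for *UGT73C5*, whose 3′ end is shared with 2 other genes.

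Ethylene keeps the apical hook closed in darkness, and its genes were mostly lower. Of 18 tested 6 were SSTF lower and 1 higher, 10 SS lower, with a median of −0.61. The 6 lower were 33.3% and the 1 higher 5.56% of those tested, against 6.23% and 6.60% over all genes tested. *HLS1* (AT4G37580), needed to form the hook, had 8.39, 14.8 and 11.2 normalized CPM in WT dark and 5.41, 4.41 and 2.62 in *pifq* dark. Its log2 fold change was −1.44 ± 0.27 (edgeR adjusted p = 0.00123). Among the ACC oxidases, which release ethylene, *ACO5* (AT1G77330) had 329, 376 and 319 normalized CPM in WT dark and 58.6, 64.6 and 47.0 in *pifq* dark, a change of −2.59 ± 0.15 on the log2 scale (edgeR adjusted p = 2.26e-07), and *ACO4* (AT1G05010) moved up, with 225, 317 and 262 normalized CPM in WT dark and 1085, 1049 and 659.8 in *pifq* dark, a log2 change of 1.80. *ACS5* (AT5G65800), an ACC synthase of etiolated seedlings, fell by 3.57, from 9.22, 7.56 and 5.73 to 0.838, 0.523 and 0.508 normalized CPM. *ETR2* (AT3G23150), a receptor that ethylene induces, fell by 1.26. Cytokinin genes had 1 SSTF lower gene of 8 tested (12.5%), *ARR3* (AT1G59940) at −1.64. Jasmonate and JAZ genes had 1 each, of 5 and 7 tested (20% and 14.3%). Over all genes tested 6.23% were SSTF lower, so 1 gene in lists this small says little about them. *JAZ1* (AT1G19180) fell by 1.49, and *OPR3*, at −1.04, was under a threshold without 1 of 4 libraries (WT dark replicate 1 or 3, *pifq* dark replicate 1 or 2).

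Genes of abscisic acid and dehydration moved down where they passed the SSTF test. Of 16 tested 7 were SSTF lower and none higher, with a median of −0.96. *ABI5* (AT2G36270), a bZIP factor that holds back germination, had 5.30, 5.09 and 5.14 normalized CPM in WT dark and 1.75, 1.64 and 1.95 in *pifq* dark, a change of −1.54 ± 0.20 on the log2 scale (edgeR adjusted p = 0.000114). *ERD10* (AT1G20450), a dehydrin, had 216, 253 and 181 normalized CPM in WT dark and 74.1, 69.6 and 51.6 in *pifq* dark. It fell by 1.73, and *RD29A* (AT5G52310), a stress-induced gene, fell by 1.48. *RD20* (AT2G33380), a caleosin with at most 1 count in a *pifq* library, had a WT to *pifq* ratio of 186 (95% exact counting interval from 51.2 to 1538), with 8.34, 12.6 and 9.09 normalized CPM in WT dark. Seed storage and oil body genes were lower too: of 6 tested 3 were SSTF lower and 5 SS lower (median −1.54), and all 6 were SSTF lower with library totals. *OLEO3* (AT5G51210), an oleosin, had 106, 101.4 and 121 normalized CPM in WT dark and 3.96, 4.04 and 4.14 in *pifq* dark. It fell by 4.76 ± 0.14 on the log2 scale (edgeR adjusted p = 3.44e-09). The storage protein *CRA1* (AT5G44120) had 40.5, 58.8 and 92.8 normalized CPM in WT dark and 19.0, 8.29 and 18.9 in *pifq* dark, and it varied more within WT dark than *OLEO3*, with a log2 fold change of −2.06. Oil mobilization genes, which turn seed oil into sugar, had no SSTF gene among 9 tested and 7 SS lower (median −0.59, with 4 SSTF lower under library totals), from 0.020 for the lipase *SDP1* to −0.87 for *LACS6*. Isocitrate lyase, *ICL*, had 2229.6, 4945 and 3059 normalized CPM in WT dark and 2363, 2569 and 1308 in *pifq* dark, and was not SS (edgeR adjusted p = 0.0790).

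Cell wall genes that loosen or remodel the wall changed in both directions. Of 21 xyloglucan endotransglucosylase/hydrolase (XTH) genes tested 3 were SSTF higher and 8 lower (median −0.63). *XTH15* (AT4G14130) had 663, 503 and 722 normalized CPM in WT dark and 35.8, 30.3 and 46.2 in *pifq* dark. It fell by 4.07 ± 0.20 on the log2 scale (edgeR adjusted p = 6.51e-08). *XTH19* (AT4G30290), *XTH18* (AT4G30280) and *XTH33* (AT1G10550) fell too, with log2 fold changes of −2.32, −2.097 and −2.49. Opposite to them, *XTH6* (AT5G65730) had 2.11, 3.63 and 2.12 normalized CPM in WT dark and 231, 189.6 and 166 in *pifq* dark, a change of 6.26 ± 0.23 on the log2 scale (edgeR adjusted p = 1.25e-08), and *XTH7* (AT4G37800) had 45.7, 48.0 and 43.3 normalized CPM in WT dark and 814, 668 and 576 in *pifq* dark. The log2 fold change of *XTH7* was 3.91. Of 15 expansins tested 4 were SSTF higher and 3 lower, and the higher count was 1 with library totals. *EXPA1* (AT1G69530) had 30.9, 30.6 and 32.0 normalized CPM in WT dark and 152, 127 and 157 in *pifq* dark, a change of 2.22 ± 0.13 on the log2 scale (edgeR adjusted p = 1.77e-07), and *EXPA9* (AT5G02260) had 132, 161 and 147 normalized CPM in WT dark and 20.9, 20.7 and 18.1 in *pifq* dark, a change of −2.88 ± 0.13 on the log2 scale (edgeR adjusted p = 4.14e-08). *EXPA10*, *EXPA6* and *EXPA5* rose by 1.31, 1.19 and 1.17, and *EXLA2* fell by 1.56. Cellulose synthesis genes had no SSTF gene among 11 tested. Those of the primary wall had 3 of 8 SS lower, and those of the secondary wall, *CESA4* (0.018), *CESA7* (0.037) and *CESA8* (0.17), were not SS.

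Structural wall proteins and a peroxidase were among the 10 largest losses in level. *EXT4* (AT1G76930), an extensin, had 2877, 2333 and 2648 normalized CPM in WT dark and 1176, 1019 and 1095 in *pifq* dark. It fell by 1.26. *AGP4* (AT5G10430), an arabinogalactan protein, had 1852, 1730.2 and 1649.9 normalized CPM in WT dark and 432, 395 and 337 in *pifq* dark, and *AGP22* (AT5G53250), of the same class, fell from 1419, 1198 and 1058 to 206, 184 and 146 normalized CPM. Their log2 fold changes were −2.17 and −2.78. *PRP2* (AT2G21140), a proline-rich protein, fell by 2.02, and AT2G37130, a peroxidase, by 1.90. Water channels had 1 SSTF higher and 2 lower of 18 tested, or 4 lower with library totals. These were 5.56% and 11.1% of the list, near the 6.60% and 6.23% over all genes tested. The 3′ ends of 3 of the 12 plasma membrane channels tested are shared with another gene. *PIP2;4* (AT5G60660) had 384, 325 and 283 normalized CPM in WT dark and 61.3, 57.8 and 57.1 in *pifq* dark, a change of −2.49 ± 0.14 on the log2 scale (edgeR adjusted p = 1.97e-07), *PIP1;5* (AT4G23400) fell by 1.35, and *PIP2;8* (AT2G16850) rose by 1.77. None of the 6 tonoplast channels tested was SSTF, and 3 were SS lower.

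Lipid transfer proteins move lipids for the cuticle, and they held the largest loss in level of all SSTF genes. *LTP2* (AT2G38530) had 17967, 17768 and 19933 normalized CPM in WT dark and 2919, 2991 and 2548 in *pifq* dark. It fell by 2.72 ± 0.17 on the log2 scale (edgeR adjusted p = 3.59e-07). The 4 other tested members rose: *LTP1* (AT2G38540) had 37.0, 50.8 and 36.9 normalized CPM in WT dark and 435, 415 and 334 in *pifq* dark, a change of 3.25 ± 0.17 on the log2 scale (edgeR adjusted p = 1.07e-07), and *LTP7*, *LTP5* and *LTP6* rose by 1.75, 1.33 and 1.26, of which *LTP5* and *LTP6* were under 2-fold with library totals. Summed over the 8 family members the share of the library went from 2.13%, 1.99% and 2.37% in the WT dark libraries to 0.369%, 0.380% and 0.361% in the *pifq* dark libraries. Wax genes had 3 SSTF lower and none higher of 15 tested, or 5 lower with library totals. *CER1* (AT1G02205), which makes the alkanes of wax, had 74.7, 69.1 and 76.6 normalized CPM in WT dark and 11.3, 11.0 and 11.1 in *pifq* dark. Its log2 fold change was −2.72 ± 0.12 (edgeR adjusted p = 3.18e-08). *WSD1* (AT5G37300), a wax ester synthase, fell by 2.62 and *KCS1* (AT1G01120), which elongates fatty acids, by 1.47.

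Starch and other metabolism followed several courses. Of 29 starch and sugar genes tested 6 were SSTF higher and 2 lower, and with library totals the median of 0.29 became −0.078 and the SSTF higher count 3. With TMM the 6 higher were 20.7% and the 2 lower 6.90% of those tested, against 6.60% and 6.23% over all genes tested. *GBSS1* (AT1G32900), the granule-bound starch synthase, had 1.37, 1.96 and 1.88 normalized CPM in WT dark and 11.0, 11.4 and 9.22 in *pifq* dark, a change of 2.61 ± 0.20 on the log2 scale (edgeR adjusted p = 1.79e-06). *APL1* (AT5G19220), a subunit of ADP-glucose pyrophosphorylase, rose by 1.54, and *TPT* (AT5G46110), which exports triose phosphate from the chloroplast, had 40.2, 63.0 and 43.8 normalized CPM in WT dark and 279, 290.2 and 265 in *pifq* dark. It rose by 2.51. *PWD* (AT5G26570), a kinase of starch breakdown, fell by 1.48, and *SPS1F* (AT5G20280), a sucrose phosphate synthase, by 1.19. Of 6 flavonoid enzymes tested 1 was SSTF lower and 1 higher, or 2 higher without WT dark replicate 3. Each was 16.7% of a small list, against 6.23% lower and 6.60% higher over all genes tested. *CHS* (AT5G13930), chalcone synthase, fell by 2.01, with 19.5, 20.6 and 19.6 normalized CPM in WT dark and 4.87, 4.71 and 5.24 in *pifq* dark, and *CHI* (AT3G55120), the next enzyme, rose by 1.68, with 5.49, 5.89 and 5.98 normalized CPM in WT dark and 19.3, 19.2 and 17.2 in *pifq* dark. In glucosinolate metabolism *CYP83B1* (AT4G31500) and *MYB51* (AT1G18570) fell by 1.33 and 1.39, and the myrosinases *TGG1* (AT5G26000) and *TGG2* (AT5G25980), which cleave glucosinolates, rose by 1.35 and 1.201, both under 2-fold with library totals. Of 11 enzymes against reactive oxygen *FSD1* (AT4G25100), an iron superoxide dismutase, and *TAPX* (AT1G77490), the thylakoid ascorbate peroxidase, were SSTF higher at 2.13 and 1.79. The list's median of 0.17 became −0.20 with library totals, and the abundant catalase *CAT3* had 4179, 2622 and 3501 normalized CPM in WT dark and 1766, 1555 and 2130.3 in *pifq* dark, SS lower at −0.92 and past 2-fold without WT dark replicate 2 or *pifq* dark replicate 3.

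Genes outside the lists were among the most changed. AT4G28780, a GDSL-type lipase, had 1.52, 1.74 and 1.53 normalized CPM in WT dark and 113, 102 and 89.1 in *pifq* dark, a change of 5.99 ± 0.17 on the log2 scale (edgeR adjusted p = 3.44e-09). *ESM1* (AT3G14210), a GDSL-type protein that modifies glucosinolate breakdown, had 0.637, 0.945 and 1.09 normalized CPM in WT dark and 50.9, 54.3 and 61.5 in *pifq* dark. It rose by 5.96. *QQS* (AT3G30720), a gene found only in *Arabidopsis thaliana* that affects starch, had 1.62, 1.82 and 1.24 normalized CPM in WT dark and 66.1, 134 and 77.1 in *pifq* dark. The *pifq* libraries lay far above WT, with a log2 fold change of 5.90. AT1G04660, a glycine-rich protein, rose by 5.84. Among those that fell, *GRF7* (AT5G53660), a growth-regulating factor, had 44.5, 50.1 and 45.8 normalized CPM in WT dark and 0.838, 1.64 and 0.931 in *pifq* dark. It fell by 5.34 ± 0.21 on the log2 scale (edgeR adjusted p = 1.73e-08). *CEL2* (AT1G02800), a cellulase, had 47.5, 68.5 and 52.6 normalized CPM in WT dark and 1.37, 2.54 and 1.69 in *pifq* dark, a log2 change of −4.90. AT5G04120, of the phosphoglycerate mutase family, *MYB10* (AT3G12820), a MYB factor, AT3G18530, an ARM repeat protein, and AT1G16850 fell by 5.81, 4.52, 4.82 and 4.43. The 3′ end of AT3G18530 is shared with 1 other gene. *RCI2B* (AT3G05890) and *RCI2A* (AT3G05880), neighbouring genes for membrane proteins induced by cold and salt, fell by 2.66 and 1.29. *RCI2B* had 1358, 1328 and 1334 normalized CPM in WT dark and 225, 226 and 183 in *pifq* dark.

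Markers of single cell types moved along with some of these groups, and their part in the results was not tested. With library totals the SSTF higher counts below were 3 for the stomatal and 1 for the dividing cell markers. Of 16 stomatal lineage and guard cell markers 9 were tested and 5 were SSTF higher, none lower, and their summed level was 74.3 to 84.3 normalized CPM in WT dark and 139 to 152 in *pifq* dark. The 6 early lineage markers tested had 4 SSTF higher and a median of 1.195. Of the 3 guard cell markers tested 1 was SSTF higher, 1 SS lower and 1 not SS (median 0.064). The guard cell marker that rose was *FAMA* (AT3G24140), which sets guard cell fate. It had 3.43, 5.81 and 3.95 normalized CPM in WT dark and 19.4, 16.2 and 14.5 in *pifq* dark, a change of 1.95 ± 0.21 on the log2 scale (edgeR adjusted p = 1.99e-05). *SCRM2* (AT1G12860) and *POLAR* (AT4G31805) rose by 1.43 and 1.48. Of 19 markers of dividing cells 15 were tested and 3 were SSTF higher, none lower, with sums of 146 to 163 and 220.2 to 244 normalized CPM. *CYCD3;1* (AT4G34160), a cyclin of the shoot, had 6.72, 6.98 and 7.36 normalized CPM in WT dark and 22.8, 21.6 and 21.6 in *pifq* dark. It rose by 1.65. The 11 root markers summed to 946 to 1115 normalized CPM in WT dark and 485 to 634 in *pifq* dark. Of the 7 tested *CASP2* (AT3G11550), of the Casparian strip, was SSTF lower at −1.45, and a second marker became SSTF lower without WT dark replicate 3 or without *pifq* dark replicate 1. Xylem markers summed to 120.0 to 130 against 81.9 to 98.2 normalized CPM, with none SSTF of 3 tested, or 1 lower without *pifq* dark replicate 3. Root hair markers stayed under the filter, with sums of 7.56 to 10.2 and 8.38 to 11.0, and shoot meristem and primordium markers summed to 43.0 to 57.6 and 38.1 to 50.4, with none SSTF of 2 tested. The sum of seed storage and oil body genes was 190 to 282 normalized CPM in WT dark and 37.4 to 61.4 in *pifq* dark. Of all these markers, *VND6* alone had no count in any of the 6 libraries.

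Common reference genes differed little with TMM scaling. Of 11 tested none was SSTF and 1 was SS lower, *UBC9* (AT4G27960) at −0.74, and the median was 0.0044. *PP2AA3* had 66.0, 75.2 and 66.2 normalized CPM in WT dark and 72.6, 73.5 and 61.8 in *pifq* dark, with overlapping groups and a log2 fold change of 0.0044. *ACT2* (0.0054), *YLS8* (0.049), *TIP41L* (−0.11), *UBQ10* (−0.14), *PTB1* (−0.15), *UBC21* (−0.42), AT4G26410 (0.26), *GAPC1* (0.27) and *EF1A* (0.35) were not SS. With library totals the list's median was −0.37, and *PP2AA3*, *ACT2* and *YLS8* were SS lower, at −0.37, −0.37 and −0.33.

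**Figure D5:**
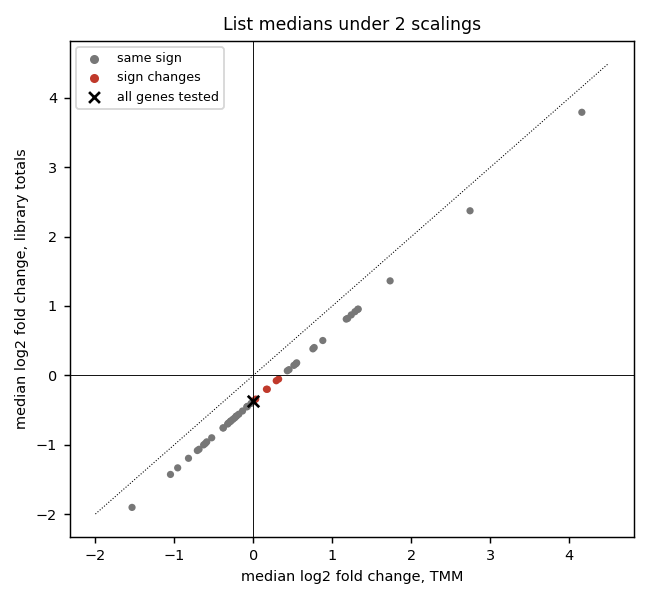
Median log2 fold change of each list in *pifq* dark over WT dark with TMM (x axis) and with library totals (y axis), with equality as a dotted line and the median of all genes tested as a cross. Every list lies below equality by about as much as the cross does, and the 6 lists in red change sign. They are those for regulators of greening, starch and sugar, chlorophyll breakdown, reactive oxygen scavenging, reference genes, and auxin synthesis, transport and perception.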

How the data were processed

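RNA from whole dark-grown seedlings was sequenced from the 3′ ends of transcripts, and the authors aligned reads with Bowtie 0.12.7 to the TAIR10 transcripts, counting those near the 3′ end of each coding strand. Raw counts per locus and library were deposited; how technical duplicate runs were combined is not given in the sources used here. Reads of genes with alike 3′ ends may be split between them or lost.

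The 3 *pifq* dark and 3 WT dark libraries were compared with edgeR 4.0.16 (R 4.3.3): TMM scaling, the quasi-likelihood test with genotype as the only term, and Benjamini-Hochberg adjustment over the 13456 genes that reached 5 CPM in 2 or more of the 6 libraries. The scripts were tested on simulated data. SSTF and SS calls are defined with the results. Standard errors were taken from the fold change and its F statistic. Values beside gene names are CPM after TMM scaling.

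Gene lists and members were chosen with earlier results of these data known. Each list is described by counts and its median, with no test over a list. Of 1258 listed loci 734 were tested, 524 had too few counts and 100 of these had none in the 6 libraries. The 4 *PIF* loci, the 10 genes that rose and the 10 that fell most among non-overlapping genes averaging 20 normalized CPM or more in their higher group, the 10 largest gains and losses in CPM, and per list or role up to 4 SSTF genes each way, or every member where there were at most 6, could be named. *LHCB4.3*, *FD1*, *PGRL1B*, *PORB*, *PORC* and *ROT3* were named after their values were seen. Names and promoters came from RefSeq for TAIR10.1, which holds 32835 of the 33601 loci. A 3′ end was called shared at 90% identity or more over at least 100 nt of the last 500 nt. Alternatives were RLE size factors, library totals, DESeq2 1.42.0, all 12 libraries in 1 fit, a replicate block, no filter, genes over 1% of counts left out, an adjusted p of 0.05, and each library left out in turn. Pandas 2.3.3 and matplotlib 3.10.9 were used for lists and plots.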

Additional observations from a re-analysis of the deposited data

How the results depend on the processing

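The 888 genes SSTF higher became 525 with library totals in place of TMM, and the 838 SSTF lower became 1744. Without the filter on low counts they were 1220 and 1267, with RLE size factors 881 and 851, with DESeq2 880 and 859, with all 12 libraries fitted together 910 and 837, without genes over 1% of counts 904 and 854, and at an adjusted p of 0.05 891 and 856. Leaving out each library in turn gave between 816 and 966 higher and between 704 and 906 lower. Of the named genes' values under 14 settings, 4013 kept their side of the threshold, 54 lost the call and 26 gained it. Another 4 turned in sign and were SS with TMM or under the other setting. All were with library totals: *GDH2* (−0.30), *PP2AA3* (−0.37), *ACT2* (−0.37) and *YLS8* (−0.33). A turn of sign in a value that was SS in neither fit was not counted. Of the lists' SSTF counts 1295 stayed within 1.5 times and 77 did not, among them the plastid-encoded loci (2 SSTF higher, 0 with DESeq2 and with library totals, 6 with all 12 libraries and 16 without the filter). The 1295 include counts of 0 under both settings, since many lists had no SSTF gene in a direction. The medians of 4 lists moved by over 1.5 times in fold under a setting that changed which members were tested: antenna from 4.16 to 3.46 without genes over 1% of counts, and, without the filter, glucosinolates from −0.71 to 1.18, jasmonate from −0.82 to 0.12 and seed storage from −1.54 to −0.67. Depth was not varied.

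Same-numbered libraries of the 2 genotypes correlated at −0.233, 0.486 and 0.467 in their deviations from the group means, negative for number 1 and positive for numbers 2 and 3. The labels name no pairs, and the main fit did not pair the libraries. Whether the numbers mark shared batches was not tested. A fit with a replicate block called 892 genes higher and 855 lower, and 6 plastid-encoded loci higher in place of 2.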

Other observations

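The 5 tested genes on each side of the 4 *PIF* loci, 40 in all, held 5 SSTF higher and 5 SSTF lower genes in *pifq* dark. For scale, 6.60% of the 13456 genes in the test passed that threshold upward and 6.23% downward. Each count of 5 among the 40 is a larger share than these, though it rests on few genes. Next to *PIF4*, with edgeR's test, *PRPL3*, a plastid ribosomal protein gene, had a log2 fold change of 1.37, AT2G42975 one of 2.17, AT2G42990 −1.76, AT2G43050 −1.63 and *IBH1* −2.34. Beside *PIF1*, *PSAE-2*, of photosystem I, had 2.45 and AT2G20080 −1.47. Beside *PIF5*, AT3G59068 had 1.35, AT3G59080 1.11 and *PME61* −1.56. None of the 10 neighbours of *PIF3* was SSTF. Whether neighbours differ from other genes was not tested.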
